A study of Mus musculus with 6 samples.

Results

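Scavenger and efferocytosis receptors of J774 mouse macrophages were examined with and without silencing of NCOA4. They are Msr1, Marco, Cd36, Scarb1, Scarb2, Cd68, Stab1, Lrp1, Mertk and Cd163, that is, 10 genes of the 55487 in the deposited values, chosen by name and matched through Ensembl identifiers to GENCODE M21. J774 is an established macrophage-like line, and NCOA4 is the cargo receptor that carries ferritin to the lysosome so that its stored iron is released. Cells received liposome-delivered control siRNA (siControl) or NCOA4 siRNA (siNCOA4), and 3 biological replicates of each were sequenced, 6 libraries in all. Both groups are the same line and both were transfected, so no untransfected cells are part of the comparison, and the time from transfection to RNA isolation is not given in the sources used here. The comparison asks what loss of NCOA4 does to the macrophage transcriptome.

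Scavenger receptors are surface proteins with broad ligand binding, first known for taking up modified low-density lipoprotein, and most also bind bacteria, hemoproteins or dying cells. Efferocytosis is the engulfment of apoptotic cells, which are recognised by phosphatidylserine on their surface, either directly or through soluble bridging proteins. In macrophages of the spleen and liver the same machinery clears senescent erythrocytes, hemoglobin and heme, and in the artery wall it fills foam cells with cholesterol.

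With NCOA4 silenced, the transcript of 1 receptor, Mertk, was higher past the threshold used for all genes. Mertk was 140% of control, and the other 7 receptors that could be tested lay between 85.7% (Cd68) and 115% (Stab1) of control. Cd163 and Marco were near zero in every library. Levels are TPM, that is, a gene's share of the transcripts of its library, which are divided by gene length and so can be compared between genes. Changes are log2 differences of log2(TPM + 0.5), siNCOA4 minus siControl, tested with limma over the 13829 genes with a mean of at least 0.5 TPM. In RNA from whole cultures, fewer cells with a transcript and less transcript per cell cannot be told apart.

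The libraries held between 15502155 and 18282129 reads on the genes whose reads could be rebuilt from TPM, so that 1 read on a 2 kb gene was worth 0.0825 to 0.0959 TPM. Ncoa4 fell from 21.6 ± 1.57 to 9.04 ± 0.533 TPM (SD, n = 3 each; log2 difference -1.21, adjusted p = 0.00127, limma). Replicates of siNCOA4 differed by a chi-square per gene of 1.96 to 2.35, where counting noise alone gives about 1, and siControl replicates 2 and 3 by 3.60, but siControl replicate 1 differed from each of the other two by 11.6 and 11.7. It was the highest or the lowest of all 6 libraries for 6 of the 8 tested receptors, and the log2 differences of these 6 are also given without it. The 9 macrophage markers were present, with a summed level of 7406 to 8083 TPM in siControl and 8422 to 8543 TPM in siNCOA4. Among them Adgre1, Csf1r and Fcgr1 rose and Cd14 fell (adjusted p = 0.0248, 0.0218, 0.00436 and 0.0361, limma), and the part of this shift in the receptor results was not tested. Fcgr1 held under all 16 alternatives tried, while Adgre1, Csf1r and Cd14 lost the call without siNCOA4 replicate 1, 2 or 3, with adjusted p over the alternatives of up to 0.108, 0.1003 and 0.155, and Cd14 also without siControl replicate 2 or 3. All 4 erythroid markers were at 0, and the summed levels of T cell, B cell, fibroblast and epithelial markers reached 0.34 TPM at most. Endothelial markers summed to 0.913 to 1.61 TPM.

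In control cells the receptors ranged from Cd68 at 1832 TPM to Marco without a read. Cd68 came first, Cd36 was 4.16 times lower, Lrp1 lay 1.75 times below Cd36, and Msr1 followed 2.34 times below Lrp1. Msr1 and Stab1 were neighbours whose ranges overlapped, as were Scarb2 and Mertk further down. The overlap of Msr1 and Stab1 came from siControl replicate 1, where Msr1 was 91.4 and Stab1 94.7 TPM, while in replicates 2 and 3 Msr1 (119.8 and 112 TPM) lay above Stab1 (105.4 and 105.6 TPM). Scarb1 lay between these pairs, 1.3 times below Stab1 and 2.73 times above Scarb2. Among the 13829 tested genes, mean levels put Cd68 at the 99.5th percentile, Cd36 at the 97.9th and Lrp1 at the 95.7th, while Mertk and Scarb2 were at the 67.1st and 64.5th. With NCOA4 siRNA, Stab1 stood 1.12 times above Msr1, the opposite of their order in siControl replicates 2 and 3, and Mertk 1.21 times above Scarb2, each with separate ranges over the 3 libraries.

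**Figure D1:**
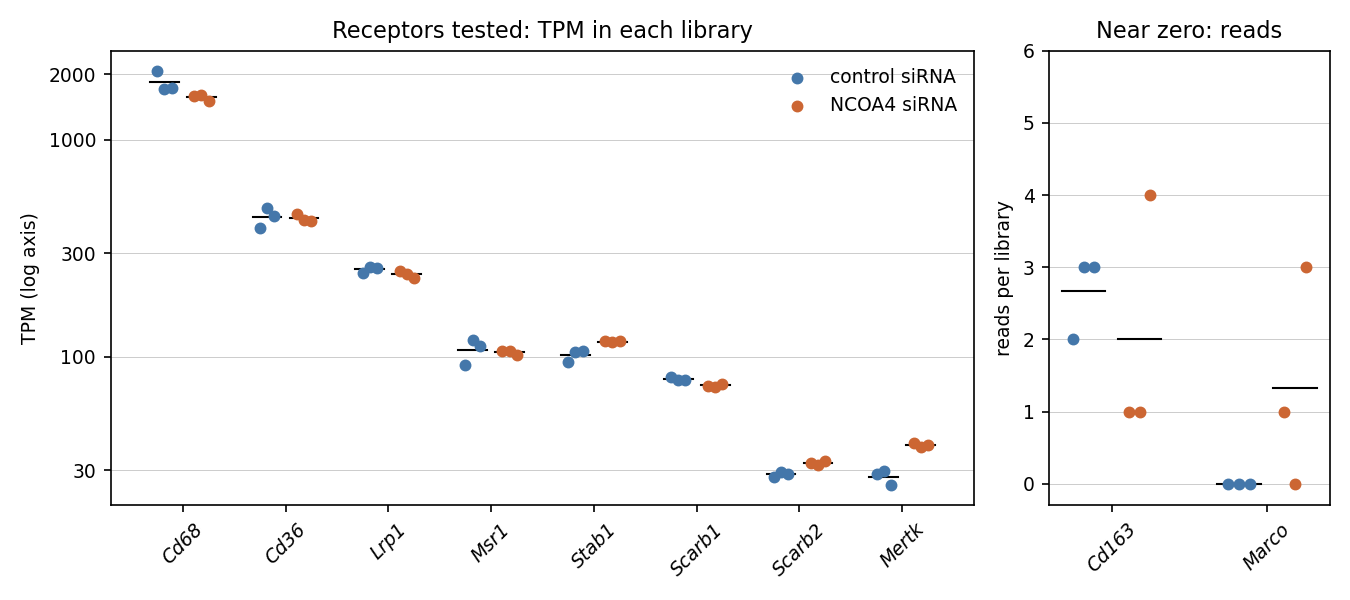
Level of the 8 tested receptors in TPM on a log axis (left) and reads per library of Cd163 and Marco (right). Each library of siControl and siNCOA4 is 1 point, with a line at each group mean. Cd68 lies between 1507 and 2060 TPM, and 7 other receptors lie between 25.7 and 483 TPM. Cd163 and Marco have at most 4 and 3 reads, which is 0.258 TPM or less.

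Promoter sequence is shown for the 3 receptors that mark the ends of this range and the one called change, that is, Cd68 (highest), Marco (near zero) and Mertk. Each run is the 250 bases before the RefSeq transcription start (GRCm38.p6), given 5′ to 3′ on the strand of the gene, at chr11:69666171-69666420 (minus strand), chr1:120505025-120505274 (minus strand) and chr2:128698665-128698914 (plus strand). Capitals mark letters of the motifs searched on both strands, and positions count back from -1, the base before the start.
Cd68: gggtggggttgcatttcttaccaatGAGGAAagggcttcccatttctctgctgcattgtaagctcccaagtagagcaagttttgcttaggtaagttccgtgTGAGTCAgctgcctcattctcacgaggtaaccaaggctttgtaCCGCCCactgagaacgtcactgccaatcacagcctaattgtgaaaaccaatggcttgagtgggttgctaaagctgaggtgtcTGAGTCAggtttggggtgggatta
Marco: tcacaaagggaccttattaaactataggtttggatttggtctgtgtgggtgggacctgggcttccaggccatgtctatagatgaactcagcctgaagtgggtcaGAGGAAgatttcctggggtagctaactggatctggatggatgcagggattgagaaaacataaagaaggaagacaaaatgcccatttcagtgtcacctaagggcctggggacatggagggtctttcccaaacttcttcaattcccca
Mertk: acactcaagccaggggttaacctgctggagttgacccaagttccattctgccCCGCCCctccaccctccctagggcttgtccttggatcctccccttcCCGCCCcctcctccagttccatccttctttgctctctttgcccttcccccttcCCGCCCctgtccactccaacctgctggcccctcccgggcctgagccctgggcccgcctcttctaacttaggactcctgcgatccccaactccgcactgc
RefSeq gave a start for 8 of the 10 receptors and none was used for Msr1 and Scarb1. The Cd68 window held GAGGAA, the core bound by the myeloid factor PU.1, at -225 to -220, TGAGTCA, the AP-1 site, at -149 to -143 and again at -24 to -18, and the GC box GGGCGG on the other strand at -106 to -101. The Marco window held GAGGAA at -146 to -141. The Mertk window held 3 GC boxes on the other strand, starting at -198, -152 and -99, and its GC content was 63.6% against a median of 52.4% over 32851 promoters. Across the 8 windows, GC boxes were found in 5, GAGGAA in 3 (Cd68, Marco and Stab1) and TGAGTCA in 1, while the E-box CACGTG and the MAF-binding core TGCTGAC were found in 0. Of all promoters, 32.7% held GGGCGG, 23.3% GAGGAA, 4.46% TGAGTCA, 6.02% CACGTG and 3.81% TGCTGAC. A match describes these letters and is not a test of binding.

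Mertk encodes a receptor tyrosine kinase of the TAM family, which binds the bridging proteins Gas6 and protein S on phosphatidylserine and triggers engulfment of apoptotic cells. It is a gene of chromosome 2 (GRCm38 chr2:128698956-128802894, plus strand, 4336 exonic bases). Mertk was 28.6, 29.6 and 25.7 TPM in siControl and 39.9, 38.4 and 39.3 TPM in siNCOA4. The lowest siNCOA4 library lay 8.87 TPM above the highest control library, so the groups did not overlap. The difference was 0.48 on the log2 scale (SE 0.0614, 95% interval 0.34 to 0.63), a fold of 1.40, with an adjusted p of 0.00965 in limma. Between 581 and 1027 reads stood behind each value, and the values varied by 7.21% of the mean in siControl and 1.88% in siNCOA4, where counting alone gives 3.46%. The increase was 0.42 to 0.52 under every alternative tried, but the adjusted p was 0.0597, 0.0502 and 0.0546 without siNCOA4 replicate 1, 2 or 3. An exact two-sided permutation test of its TPM gave p = 0.1, the smallest that 3 libraries against 3 allow. The same permutation test also gave p = 0.1 for Stab1, Scarb2, Cd68 and Scarb1, which were not called by limma.

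Of the 8 tested receptors, 1 was called higher and 0 were called lower by limma. Over all tested genes 5.42% were called, 3.11% higher and 2.31% lower. Without adjustment, 5 of the 8 receptors had p under 0.05, as had 21.6% of all tested genes. The alternative limma-voom fit on rebuilt reads called 3 receptors (Mertk and Stab1 higher, Cd68 lower) and 11.9% of the 12137 genes it tested. The split of calls over all genes was 430 higher and 320 lower, but 348 and 622 after median centring and 405 and 419 after quantile normalization. No receptor passed a fold of 1.5 together with the adjusted p, which 163 genes (1.18%) did in limma. The study set the same fold and an FDR under 0.05, but tested with edgeR, so the 163 are not its own count of genes. The median log2 difference of the 8 receptors was -0.02 and that of all tested genes 0.03. Every siNCOA4 library lay above every control library for Mertk, Stab1 and Scarb2, a pattern shown by 16.6% of all tested genes. Every siNCOA4 library lay below every control for Cd68 and Scarb1, as for 11.8% of all tested genes.

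**Figure D2:**
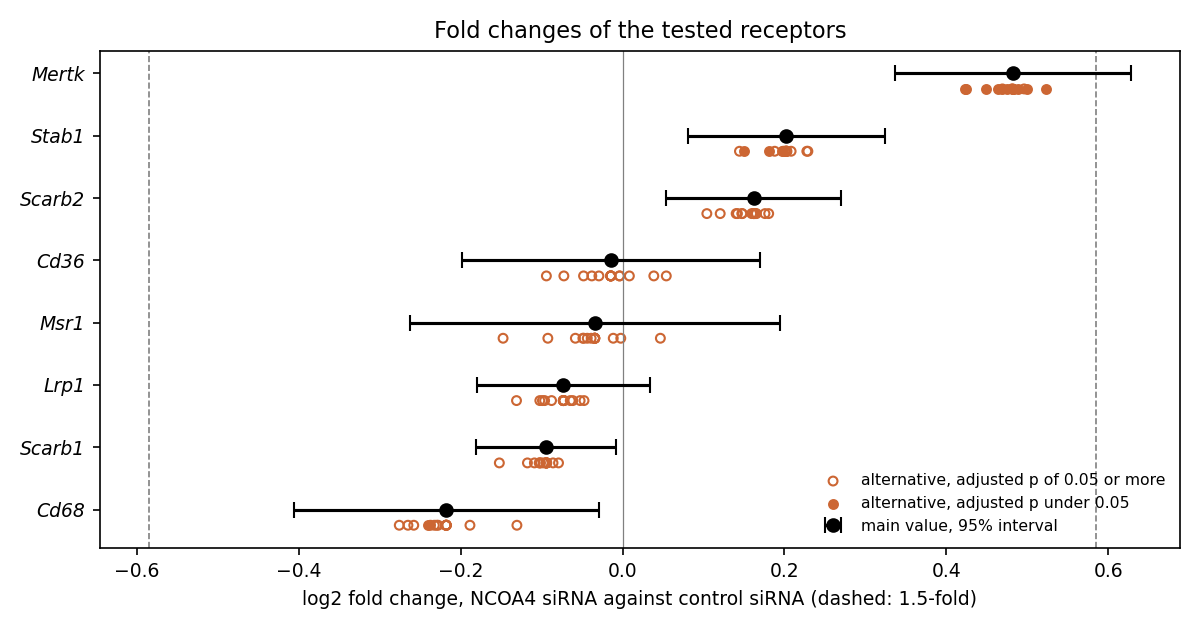
Difference of each tested receptor, siNCOA4 minus siControl, as log2 of TPM + 0.5, with its 95% interval from limma. Mertk at 0.48 is the single receptor past the adjusted threshold, while the intervals of Stab1, Scarb2, Scarb1 and Cd68 leave out 0 without passing it and those of Msr1, Cd36 and Lrp1 include 0.

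Stab1 encodes stabilin-1, a large endocytic receptor of tissue macrophages and sinusoidal endothelium that takes up acetylated low-density lipoprotein and SPARC and binds phosphatidylserine. It lies at chr14:31139013-31168641 on the minus strand, with 10288 exonic bases. Stab1 was 94.7, 105.4 and 105.6 TPM in siControl and 117.8, 116.2 and 117.5 TPM in siNCOA4. The groups did not overlap, with a gap of 10.6 TPM, and siControl replicate 1 was the lowest library. The difference was 0.20 (SE 0.0512, 95% interval 0.08 to 0.32) with an adjusted p of 0.0755 in limma, so it was not called. Without siControl replicate 1 it was 0.15 with an adjusted p of 0.0429.

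Scarb2 encodes LIMP-2, a lysosomal membrane protein of the class B family that delivers β-glucocerebrosidase to the lysosome. Scarb2 was 27.9, 29.6 and 28.9 TPM in siControl and 32.2, 31.7 and 33.0 TPM in siNCOA4. The groups lay 2.1 TPM apart at their nearest. The spread within each group (2.85% and 2.02% of the mean) was no larger than the 3.02% that counting alone would give. The difference was 0.16 (SE 0.0455, 95% interval 0.05 to 0.27), with an adjusted p of 0.0983 in limma, and was not called. Without siControl replicate 1, the lowest library, it was 0.14 (adjusted p = 0.138).

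The other class B receptors take up lipid at the cell surface. Scarb1 is the high-density lipoprotein receptor that transfers cholesteryl esters selectively. It was 80.3, 77.8 and 77.9 TPM in siControl and 73.6, 72.8 and 74.5 TPM in siNCOA4, with no overlap. The difference was -0.09 (SE 0.0364, 95% interval -0.18 to -0.01) with an adjusted p of 0.197 in limma. Without siControl replicate 1, the highest library, it was -0.08 (adjusted p = 0.235). Cd36, which binds oxidised low-density lipoprotein, thrombospondin and long-chain fatty acids and is a hallmark of foam cells, was 393, 483 and 446 TPM in siControl and 455, 428 and 421 TPM in siNCOA4. The siNCOA4 values all lay inside the control range, with siControl replicate 1 below and replicate 2 above them. Its log2 difference was -0.01 (SE 0.0776), and the 95% interval ran from -0.20 to 0.17, that is, from 0.871 to 1.13 times control. It was -0.09 without siControl replicate 1 and 0.05 without siControl replicate 2. All 3 class B genes lie on chromosome 5, Cd36 at chr5:17781690-17888801, Scarb1 at chr5:125277087-125341094 and Scarb2 at chr5:92441314-92506833, each on the minus strand. Their differences did not share a direction.

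Among the receptors examined here, Msr1 and Marco belong to class A, as trimers with a collagen-like stalk that bind modified lipoprotein, bacteria and unopsonised particles. Msr1 (chr8:39581685-39642673, minus strand) was 91.4, 119.8 and 112 TPM in siControl and 105.9, 106.5 and 101.2 TPM in siNCOA4. The groups overlapped, and siControl replicate 1 was the lowest and replicate 2 the highest of the 6 libraries. All siNCOA4 values lay below siControl replicates 2 and 3. The control libraries varied by 13.6% of their mean, against 2.75% in siNCOA4 and 1.61% from counting. The log2 difference was -0.03 (SE 0.0963), with a 95% interval of 0.833 to 1.14 times control. It was -0.15 without siControl replicate 1 and 0.05 without siControl replicate 2. Marco (chr1:120474538-120505024, minus strand) had 0 reads in all 3 control libraries and 1, 0 and 3 reads in siNCOA4. A count of 0 allows up to 3 reads per library, which is 0.276 TPM, so the values of both groups were at the floor and no fold is given. Of this pair, Msr1 was thus among the abundant receptors and Marco was at or near 0 in every library.

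**Figure D3:**
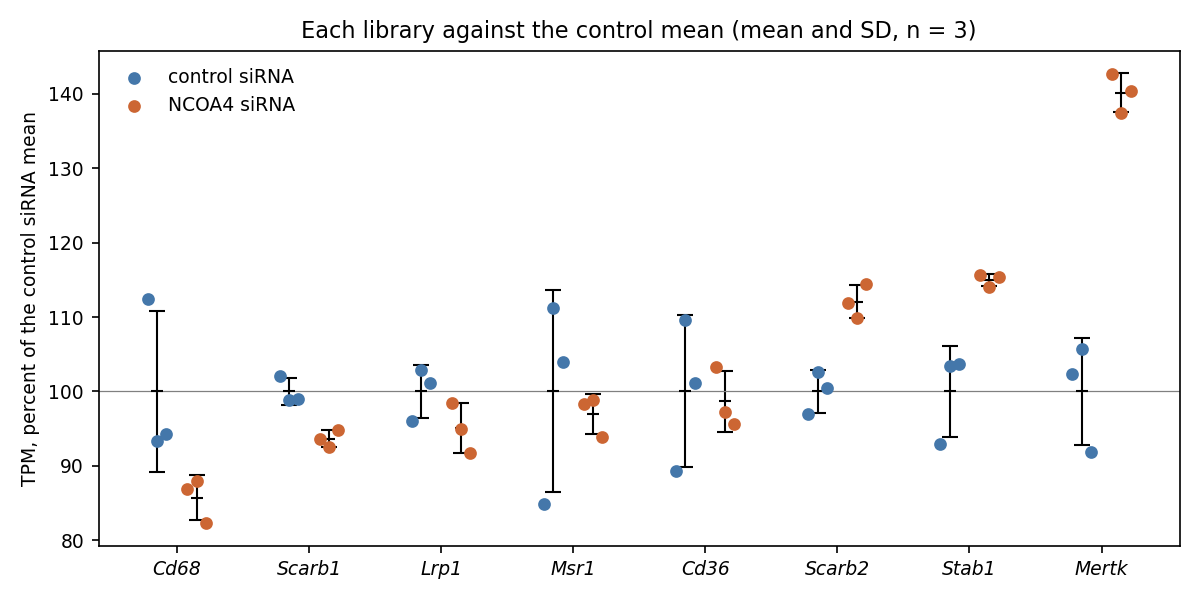
Each library's TPM as a percent of the siControl mean for the 8 tested receptors, with 1 point per library. Mertk, Stab1 and Scarb2 have all siNCOA4 points above all siControl points, and Cd68 and Scarb1 have all below. The control points are spread more widely than the siNCOA4 points for every receptor drawn, though for Lrp1 the SDs were close (9.02 and 8.57 TPM).

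Cd68 encodes macrosialin, a heavily glycosylated protein of late endosomes and lysosomes that is widely used as a macrophage marker. It is a short gene (chr11:69664213-69666153, minus strand, 1257 exonic bases). Cd68 was 2060, 1709 and 1726 TPM in siControl and 1591, 1612 and 1507 TPM in siNCOA4. The groups did not overlap, and siControl replicate 1 was the highest library by a wide margin. The difference was -0.22 (SE 0.0793, 95% interval -0.41 to -0.03), with an adjusted p of 0.178 in limma. Without siControl replicate 1 it was -0.13 with an adjusted p of 0.0963. Cd68 alone made up 63.7% ± 3.99 of the summed TPM of the 10 receptors in siControl and 60.1% ± 0.716 in siNCOA4 (SD, n = 3 each), and the sum was 2870 ± 130 and 2611 ± 75.7 TPM. In siControl replicate 1 the share was 68.3% and the sum 3018 TPM. Without that library the control means were 61.5% and 2795 TPM, and the shares in siControl replicates 2 and 3 (60.8% and 62.2%) overlapped those in siNCOA4 (59.7% to 60.9%). The share of Mertk was 0.975% ± 0.0667 in siControl, or 0.988% without replicate 1, and 1.502% ± 0.0509 in siNCOA4.

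Lrp1 encodes a very large endocytic receptor for α2-macroglobulin, apolipoprotein E and heme bound to hemopexin, and with surface calreticulin it takes part in apoptotic cell uptake. It lies at chr10:127538161-127621148 on the minus strand and has 17717 exonic bases. Lrp1 was 242, 260 and 255 TPM in siControl and 249, 240 and 231 TPM in siNCOA4, with overlapping groups. Its depth was the greatest of the receptors, at 23122 to 27866 reads per library. The difference was -0.07 (SE 0.0448, 95% interval -0.18 to 0.03), that is, 0.883 to 1.02 times control.

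Cd163 encodes the receptor that clears hemoglobin bound to haptoglobin. Cd163 (chr6:124304656-124330527, plus strand) had 2, 3 and 3 reads in siControl and 1, 1 and 4 in siNCOA4. The summed counts of 8 and 6 reads have exact 95% Poisson intervals of 3.45 to 15.8 and 2.20 to 13.1, which cover counting error only. For Marco the 0 and 4 reads have intervals of 0 to 3.69 and 1.09 to 10.2. Both genes were below the level at which genes were tested, and a difference was not detectable at this depth. The transcript of haptoglobin (Hp, chosen after its values were seen) averaged 1.83 ± 0.758 TPM in siControl and 3.59 ± 0.826 in siNCOA4 (adjusted p = 0.156, limma). It had 8 to 22 reads per library in siControl and 26 to 43 in siNCOA4. The supply of haptoglobin protein to the cells was not measured.

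**Figure D4:**
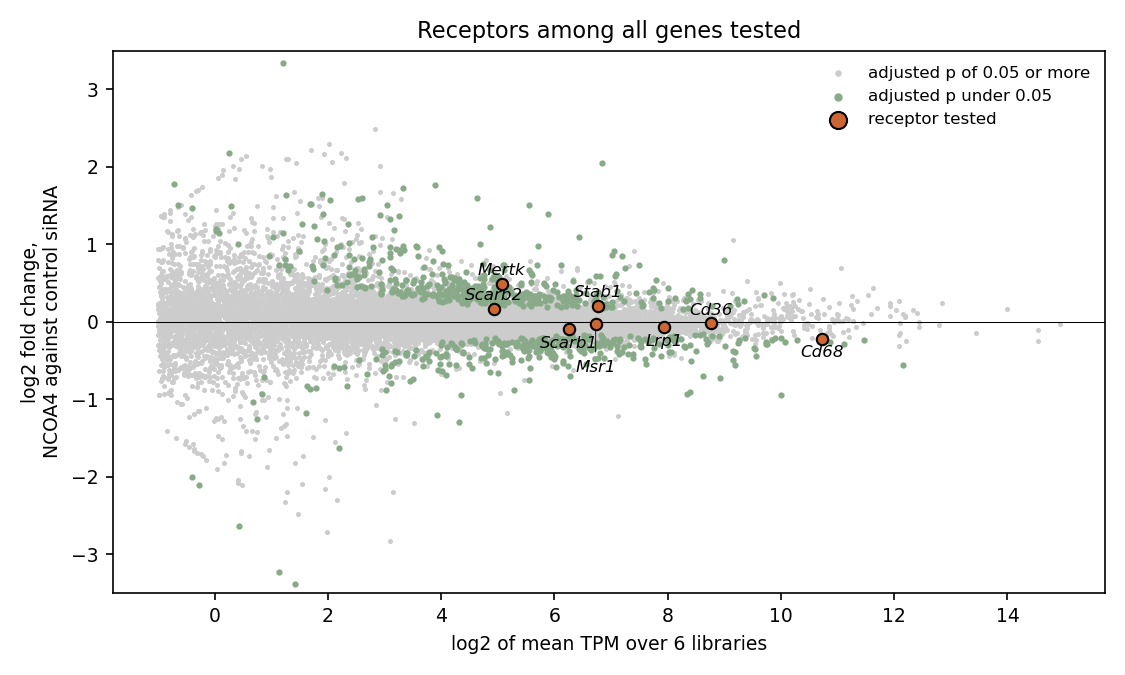
Log2 of mean TPM and log2 difference of the 13829 tested genes, in green past the adjusted threshold and otherwise in grey. The 8 tested receptors are named. Mertk lies at 0.48 and the other receptors between -0.22 and 0.20. Ncoa4, at -1.21, is among the points but is not named.

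Genes that work with these receptors were read from 5 lists with 93 genes, of which 76 were tested, 9 were called higher and 7 lower. That is 21.1% of those tested, beside 5.42% of all tested genes. The lists were chosen with earlier results of these data known, so the 2 shares are descriptive and their difference was not tested. Of the 16 calls, Mrc1, Itgb5, C1qa, C1qc and Maf also held when any library was left out. The other 11 lost the call without siNCOA4 replicate 2 and without replicate 3, 9 of them without siNCOA4 replicate 1, 7 without siControl replicate 3 and 6 without siControl replicate 2, with adjusted p between 0.0553 and 0.155.

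Among 21 other scavenger receptors 13 were tested, 1 rose and 1 fell, with a median log2 difference of -0.05. Mrc1, the mannose receptor, rose from 91.8 ± 4.56 to 167 ± 1.40 TPM (log2 difference 0.86, adjusted p = 0.00118). Cd14, the lipopolysaccharide co-receptor and the most abundant gene of the list, fell from 1174 ± 68.8 to 974.7 ± 19.1 TPM (-0.27, adjusted p = 0.0361). Of the 13829 tested genes, 7933 were higher in sign and 5896 lower. Among 13 other receptors for apoptotic cells 7 were tested and all were higher in sign, with a median of 0.17. Of these Itgb5, an integrin subunit that binds Mfge8 on dying cells, rose from 57.2 ± 2.14 to 74.6 ± 0.728 TPM (0.38, adjusted p = 0.0066), and Cd300a, an inhibitory phosphatidylserine receptor, from 38.5 ± 2.93 to 49.6 ± 1.17 TPM (0.36, adjusted p = 0.0247). Trem2, the lipid-sensing receptor with the highest level of the list, was 157 and 163 TPM (0.06, adjusted p = 0.526), with overlapping groups. Median centring moved the median of all tested genes from 0.03 to -0.03, so the sign of a difference this small may depend on scaling. Of the TAM receptors, Mertk was the one above the level at which genes were tested. Axl had no read in any library, where 3 reads would have been 0.114 TPM at most, and Tyro3 had between 1 and 7 reads per library. Timd4, a phosphatidylserine receptor of resident macrophages, had none. These last 3 were chosen after their values were seen.

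Bridging proteins, ligands and chaperones numbered 19, of which 17 were tested, 4 rose and 4 fell. Gas6, the ligand of Mertk, was 91.9, 92.0 and 98.0 TPM in siControl and 113, 113.8 and 113 TPM in siNCOA4 (0.27, adjusted p = 0.0164), with no overlap. Pros1, the other TAM ligand, had no read in any library (chosen after its values were seen). The 3 chains of complement C1q, which opsonises dying cells, rose together. C1qa went from 136 ± 9.63 to 227 ± 7.55 TPM (0.74, adjusted p = 0.00216), C1qc from 116 ± 6.21 to 189 ± 9.48 TPM (0.70, adjusted p = 0.00228) and C1qb from 297 ± 16.3 to 394 ± 17.98 TPM (0.41, adjusted p = 0.0117). Lpl, lipoprotein lipase, fell from 26.02 ± 1.38 to 18.8 ± 0.581 TPM (-0.45, adjusted p = 0.00965) and Anxa5, which binds phosphatidylserine, from 438 ± 11.9 to 376 ± 6.98 TPM (-0.22, adjusted p = 0.0248). The other 2 that fell were Mfge8, a phosphatidylserine bridge to integrins, and Lgals3, galectin-3 (-0.27 and -0.24, adjusted p = 0.0312 and 0.0286), both chosen after their values were seen. Calr, the most abundant of the list and a partner of Lrp1, was 1273 and 1135 TPM (-0.16, adjusted p = 0.139), and the Lrp1 chaperone Lrpap1 was 63.1 and 60.5 TPM (-0.06, adjusted p = 0.417, chosen after its values were seen).

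Of 26 genes of engulfment and digestion 25 were tested, 1 rose and 2 fell, with a median of 0.05. Slc40a1, the iron exporter ferroportin, rose from 13.5 ± 0.859 to 18.5 ± 0.264 TPM (0.45, adjusted p = 0.0134). Hmox1, heme oxygenase 1, fell from 663 ± 24.3 to 564 ± 13.3 TPM (-0.23, adjusted p = 0.0291), and Nceh1, a cholesteryl ester hydrolase, from 41.5 ± 1.59 to 34.4 ± 1.28 TPM (-0.27, adjusted p = 0.0324). Lamp1, the most abundant, was 698 and 712 TPM (0.03, adjusted p = 0.687). All 14 regulators and sheddases were tested and 1 rose, with a median of 0.05. Maf, a transcription factor of resident macrophages, was 36.1, 36.2 and 35.9 TPM in siControl and 59.8, 58.2 and 55.7 TPM in siNCOA4 (0.67, adjusted p = 0.00127), with no overlap. Spi1, which encodes PU.1, was 210 and 218 TPM (0.06, adjusted p = 0.643).

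**Figure D5:**
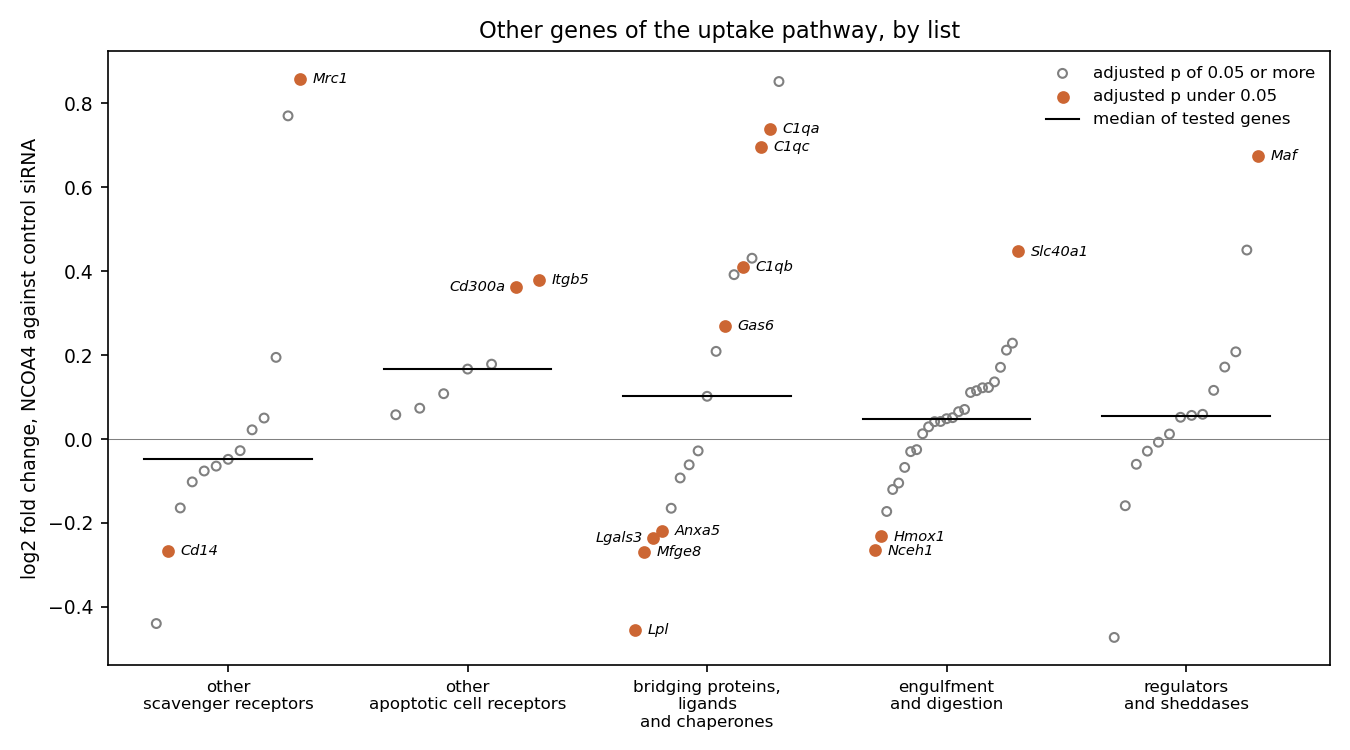
Log2 differences, siNCOA4 minus siControl, of the tested genes in each of the 5 lists, with genes past the adjusted threshold marked. The medians of the lists are between -0.05 and 0.17. The receptors themselves, with a median of -0.02, are not drawn here.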

How the data were processed

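RNA was sequenced from J774 cells with control siRNA or NCOA4 siRNA, 3 biological replicates each, as stranded poly(A) paired-end libraries. Per the labels and the submitters' processing notes, reads were trimmed with Trimmomatic 0.33, aligned to mm10 with HISAT2 2.1.0 and counted with featureCounts, and the authors deposited 1 column of TPM for each library, not scaled further. The annotation release and the strand setting of the counting are not given in the sources used here.

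Of 55487 identifiers, 55227 had a name in GENCODE M21 (GRCm38), which gave symbol, position and exonic length. Whole reads were rebuilt from TPM and length for 20782 of the 21096 genes above 0 (98.5%, tolerance 0.05 reads), all 10 receptors included, and gave the depth.

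The 13829 genes averaging 0.5 TPM or more (8 receptors among them) were tested with limma 3.58.1 (R 4.3.3; eBayes with a trend) on log2(TPM + 0.5), which understates changes of low genes, with Benjamini-Hochberg adjustment over all of them and a call at 0.05. The 10 receptors also had an exact permutation test (Python 3.11.15) over 20 arrangements. The Poisson intervals were computed with SciPy 1.17.1. Motifs were searched in the 250 bases before RefSeq starts. The test was tried on simulated data, where it missed some of the changed genes and made some wrong calls. All 10 receptors, Ncoa4, up to 6 called genes of each list with the smallest adjusted p and its most abundant gene are named by rule, and other names are marked. Members and lists were chosen with earlier results of these data known. There were 16 alternatives: limma-voom on rebuilt reads, a replicate block, median centring, quantile normalization, an unfiltered table, a filter at 5 TPM, the pseudocounts 0.1 and 1, untrended eBayes, removal of mitochondrial genes, and omission of each library.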

Additional observations from a re-analysis of the deposited data

How the results depend on the processing

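Of the 16 alternatives, Mertk passed the threshold in 12, with a log2 difference of 0.42 to 0.52. Stab1 passed in 3 (quantile normalization, limma-voom and without siControl replicate 1) and Cd68 in 1 (limma-voom), while Scarb1, Scarb2, Lrp1, Msr1 and Cd36 passed in 0. Msr1 ran from -0.148 (without siControl replicate 1) to 0.0467 (without siControl replicate 2) with a library left out, and Cd36 from -0.0941 to 0.054 (the same libraries), with a positive value also without siNCOA4 replicate 3 (0.0084) and with quantile normalization (0.0386). The other receptors kept their sign under all 16. Against 1 receptor called, quantile normalization called 2, limma-voom 3 and the libraries left out in turn 0 to 2. Against 750 genes called, the count was 499 without a filter, 404 without a trend, 1441 with limma-voom and 174 to 841 with a library left out, and with the fold of 1.5 it was 93 to 173 instead of 163. Against 16 genes of the lists, it was 8 without a trend and 5 to 17 with a library left out. Deviations of same-numbered replicates from their group means had correlations of 0.0283, -0.0185 and 0.0229. With 3 libraries in each group, these correlations cannot exclude that the numbers pair the replicates. A replicate block gave 161 genes, 87 with the fold, 5 list genes and 0 receptors (Mertk 0.48, adjusted p = 0.0515).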
